A study of Mus musculus with 27 samples.

Results

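The genes described are 10 genes of meiotic recombination, Spo11, Rec114, Mei1, Mei4, Prdm9, Dmc1, Msh4, Msh5, Hsf2bp and Tex11, which were chosen by name among the 24065 genes of the RNA-Seq table. Gene expression was measured in whole embryos at embryonic day 8.5 (E8.5) of the C57BL/6J strain, with 3 WT and 3 Dnmt3b-/- littermates and 1 library for each embryo. Dnmt3b encodes a de novo DNA methyltransferase. The Dnmt3b-/- embryos carry a catalytically inactive allele on both chromosomes, which was made from a floxed allele with a Cre deleter line and brought together by mating heterozygous mice, and every cell of the embryo therefore carries it. The question of the comparison is which transcripts change when DNMT3B activity is missing.

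Meiotic recombination is the exchange of DNA between homologous chromosomes in germ cells. It begins with double-strand breaks made on purpose by the SPO11 machinery, goes on with invasion of the homologous chromosome by recombinase filaments, and ends with crossovers that are stabilized by a meiosis-specific MutS complex. Most of these genes are used in adult or fetal germ cells and are silent or nearly so in somatic tissue, where a separate set of enzymes repairs breaks, and DNA methylation of the promoter is a known means of keeping several germline genes silent in the soma.

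The promoter sequences of 3 of the genes are shown because these genes changed and have a promoter window, Rec114 and Hsf2bp upwards and Msh5 downwards. Each is the stretch of 250 bases before an annotated transcription start in the RefSeq annotation of GRCm38.p6 (mm10), written from 5′ to 3′ on the gene's strand, with capitals marking the CpG dinucleotides at which methylation can occur. The Rec114 stretch lies at chr9:58741560-58741809 on the minus strand and holds 10 CpGs. The Hsf2bp stretch lies at chr17:32034509-32034758 on the minus strand and holds 14 CpGs. The Msh5 stretch lies at chr17:35046623-35046872 on the minus strand and holds 22 CpGs.
Rec114: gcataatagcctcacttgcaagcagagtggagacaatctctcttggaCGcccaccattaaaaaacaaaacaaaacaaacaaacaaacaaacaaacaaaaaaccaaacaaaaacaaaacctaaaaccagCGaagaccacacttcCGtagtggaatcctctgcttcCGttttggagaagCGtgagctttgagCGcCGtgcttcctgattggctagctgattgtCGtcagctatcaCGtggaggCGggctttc
Hsf2bp: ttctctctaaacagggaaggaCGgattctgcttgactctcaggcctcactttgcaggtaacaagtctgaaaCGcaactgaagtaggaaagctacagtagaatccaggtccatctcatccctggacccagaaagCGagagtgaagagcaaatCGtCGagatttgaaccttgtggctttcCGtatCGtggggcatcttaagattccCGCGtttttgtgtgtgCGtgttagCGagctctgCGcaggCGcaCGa
Msh5: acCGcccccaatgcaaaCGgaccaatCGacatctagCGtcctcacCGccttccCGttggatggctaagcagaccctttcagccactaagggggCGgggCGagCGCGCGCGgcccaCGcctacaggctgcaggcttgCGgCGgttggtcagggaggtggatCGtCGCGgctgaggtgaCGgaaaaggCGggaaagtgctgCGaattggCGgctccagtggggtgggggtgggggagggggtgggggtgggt

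The libraries held 41489332 to 58470286 counts on genes. Dnmt3b itself was 9197 ± 4191 normalized counts in WT and 4463 ± 349 in Dnmt3b-/- embryos (mean ± SD, n = 3 each), with a log2 fold change of -1.04 (SE 0.27, edgeR quasi-likelihood test, adjusted p = 0.0169). Its counts are summed over all exons, the deleted ones included, so that residual counts do not measure active enzyme. WT embryo 2 was the highest, and without it the log2 fold change was -0.61 (adjusted p = 0.0026), while without Dnmt3b-/- embryo 1, 2 or 3 the adjusted p was 0.0608, 0.0613 or 0.0555. The 8 marker genes of the E8.5 embryo were expressed in every embryo, and 5 of 5 marker genes of trophoblast and decidua were at 0 counts in every embryo. Yolk sac endoderm markers stood apart in WT embryo 2, where the 6 genes summed to 169300 normalized counts against 10380 to 53370 in the others. The 5 erythroid markers summed to 11730 in that embryo, against 14610 to 65920 in the others. The labels give no sex. Xist, the RNA of the inactive X chromosome, was at 14719 and 13494 normalized counts in WT embryos 1 and 3 and 21920 in Dnmt3b-/- embryo 2, and at most 11.0 in the other embryos, where genes of the Y chromosome were expressed instead. The part of these differences in the results was not tested, except through fits given beside the genes they touch.

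Of the 10 genes, 3 rose in Dnmt3b-/- embryos (Tex11, Hsf2bp and Rec114) and 1 fell (Msh5). A gene was called when the adjusted p of the edgeR quasi-likelihood test over all 15114 tested genes was below 0.05 and the fold change above 2. Over the whole table, 2.12% of the tested genes were called higher and 3.78% lower. A further 4 genes were tested and not called (Dmc1, Mei4, Prdm9 and Msh4), and the remaining 2 (Spo11 and Mei1) had fewer than 10 counts on average and were not tested. The values of WT and Dnmt3b-/- embryos did not overlap for 7 of the 10 genes, 6 of which were higher and 1 lower in Dnmt3b-/- embryos, where 25.3% of all tested genes were higher and 26.5% lower without overlap. The 8 genes tested had a median log2 fold change of 0.98, against -0.03 for all tested genes. A gene that is nearly silent in WT embryos passes the count filter only when it is high in Dnmt3b-/- embryos, which was so for Tex11, so that this median describes the genes and is not a test of them.

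**Figure D1:**
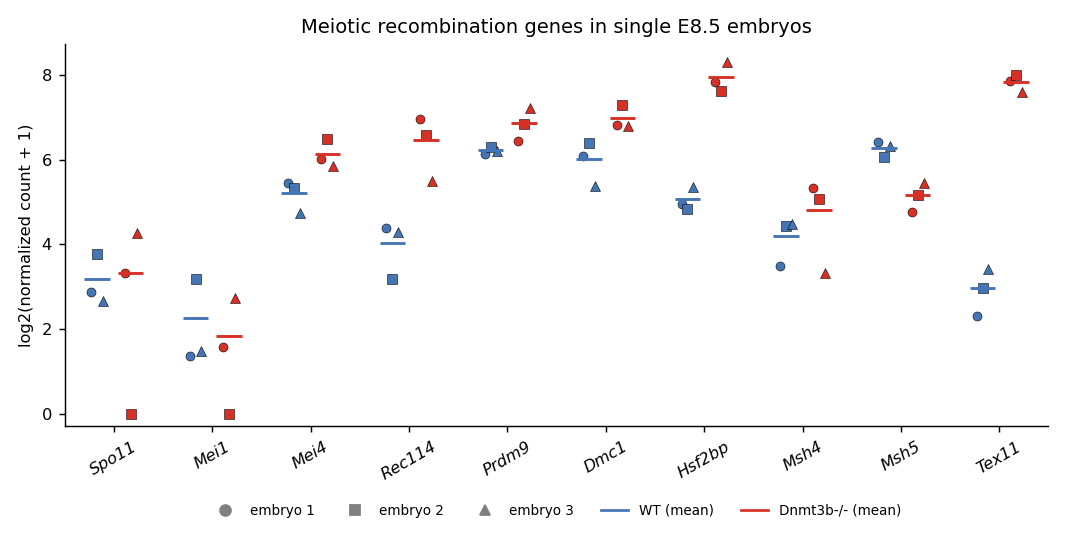
Normalized counts of the 10 genes in each embryo on a log2 scale with 1 added, where blue symbols are the 3 WT and red symbols the 3 Dnmt3b-/- embryos and lines the group means. Tex11, Hsf2bp and Rec114 lie higher in every Dnmt3b-/- embryo than in any WT embryo, and Msh5 lies lower.

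The first step of the pathway, the making of breaks, is carried by SPO11, the transesterase that cuts the DNA. Spo11 (chr2:172977379-172993576, plus strand) was at 6.34, 12.6 and 5.31 normalized counts in WT embryos 1 to 3, from 8, 11 and 6 reads. In Dnmt3b-/- embryos 1 to 3 it was at 9.02, 0 and 18.1 normalized counts, from 9, 0 and 16 reads. The groups overlapped over their whole WT range, and no change was detectable at this depth. Gm52538 overlaps the span of Spo11 by 1742 bp on the opposite strand. A fit without the count filter gave a log2 fold change of 0.17 with a 95% interval from -2.27 to 2.60. A 0 in Dnmt3b-/- embryo 2 allows up to 3.5 normalized counts, the value of 3 counts there, and this limit covers counting error only. Since the embryos were measured whole, fewer cells that express a gene and less RNA in each cell cannot be told apart here or for any other gene.

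Rec114 encodes a partner of MEI4 in the complex that sits on chromosome axes and is required for SPO11 to cut. Rec114 (chr9:58652856-58822706, minus strand) was at 19.8, 8.04 and 18.6 normalized counts in the WT embryos and at 124, 94.5 and 44.2 in the Dnmt3b-/- embryos. The lowest Dnmt3b-/- embryo was thus above the highest WT embryo, although the Dnmt3b-/- embryos themselves spread widely. Rec114 rose 5.55-fold, from 15.5 ± 6.47 to 87.7 ± 40.5 (mean ± SD, n = 3 each), with a log2 fold change of 2.47 (95% interval 1.29 to 3.66, edgeR adjusted p = 0.00741). Fits that each omitted 1 embryo gave 2.15 to 2.80 on the log2 scale and kept the call in 6 of 6 cases. The annotated promoter window of Rec114 shown above begins its transcript 81147 bp inside the annotated span of the gene, so that reads from other starts are counted with it. The last 24 bp of the span overlap Nptn, a gene for a cell adhesion protein on the opposite strand, whose log2 fold change was 0.15 and which was not called. The span also holds Gm20620 (2984 bp) and Gm21183 (525 bp) on the same strand, which were not analysed here.

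Mei4 encodes the other subunit of that complex. Mei4 (chr9:81863670-82206007, plus strand) was at 42.8, 39.0 and 25.7 normalized counts in the WT embryos and at 64.1, 88.7 and 56.7 in the Dnmt3b-/- embryos. The groups did not overlap. The log2 fold change of 0.96 (95% interval 0.12 to 1.80) did not pass the test after adjustment (edgeR adjusted p = 0.072). The 2 subunits of 1 complex thus had point estimates of 2.47 and 0.96, with intervals that overlap, and the difference between them was not tested. After a correction for exonic GC content and length the log2 fold change of Mei4 was 0.55 (edgeR adjusted p = 0.31). Its exonic GC content, 37.9%, was higher than that of 1.47% of the tested genes. Gm19228 overlaps the span of Mei4 by 711 bp on the opposite strand.

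Mei1 encodes another protein needed for break formation. Mei1 (chr15:82070074-82126817, plus strand) was at 1.58, 8.04 and 1.77 normalized counts in WT and 2.0, 0 and 5.67 in Dnmt3b-/- embryos, which are 0 to 7 reads in each embryo. It was the lowest of the genes per length in both genotypes, and 2 embryos of each genotype were at or under the limit of 3 counts. The log2 fold change without the filter was -0.52 with an interval from -3.51 to 2.48, so that neither a rise nor a fall of several fold was detectable.

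Prdm9 encodes the zinc finger histone methyltransferase that marks the places where breaks are made. Prdm9 (chr17:15543072-15564374, minus strand) was at 68.9, 78.1 and 73.5 normalized counts in the WT embryos and at 86.2, 113 and 150 in the Dnmt3b-/- embryos. Relative to the mean its WT values were the least spread of the genes, with an SD of 4.57 around 73.5, and each Dnmt3b-/- embryo was above them. The log2 fold change was 0.66 (95% interval 0.01 to 1.32) and did not pass the test (edgeR adjusted p = 0.106). Gm18564 overlaps the span of Prdm9 by 2550 bp on the opposite strand.

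The second step, strand exchange, is carried by DMC1, the meiotic recombinase that coats single-stranded DNA and pairs it with the homologous chromosome. Dmc1 (chr15:79561497-79605159, minus strand) was at 66.6, 82.7 and 40.7 normalized counts in WT and 112, 156 and 110 in Dnmt3b-/- embryos, without overlap. Its adjusted p of 0.0463 by edgeR was below the threshold, but the fold change of 1.996 (log2 1.00, 95% interval 0.24 to 1.76) was just under the required 2, so that Dmc1 was not called. Dmc1 stood near this border in several other fits, but not in all. Without WT embryo 2 it was called, with a log2 fold change of 1.23 (adjusted p = 0.0274), while the adjusted p was between 0.0634 and 0.153 with any of the other 5 embryos left out. After the correction for exonic GC content and length the log2 fold change was 0.68 (edgeR adjusted p = 0.162).

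Hsf2bp encodes MEILB2, a meiotic protein that binds BRCA2 and brings it and the recombinases to break sites. Hsf2bp (chr17:31944769-32034895, minus strand) was at 30.1, 27.6 and 39.8 normalized counts in the WT embryos and at 226, 197 and 318 in the Dnmt3b-/- embryos. Each Dnmt3b-/- embryo was far above each WT embryo. Hsf2bp rose 7.57-fold, from 32.5 ± 6.47 to 247 ± 63.3 (mean ± SD, n = 3 each), with a log2 fold change of 2.92 (95% interval 2.25 to 3.59, edgeR adjusted p = 0.000602), and it ranked 55 from the top among the 15114 tested genes. It was between 2.71 and 3.09 on the log2 scale in fits that omitted 1 embryo.

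The third step, the making of crossovers, rests on the MSH4-MSH5 complex, a clamp that holds the joined DNA molecules. Msh4 (chr3:153857141-153906138, minus strand) was at 10.3, 20.7 and 21.2 normalized counts in the WT embryos and at 39.1, 32.7 and 9.07 in the Dnmt3b-/- embryos. Dnmt3b-/- embryo 3 was the lowest of all, the other Dnmt3b-/- embryos were the highest, and the groups overlapped. The log2 fold change of 0.64 (95% interval -0.78 to 2.06) did not pass the test (edgeR adjusted p = 0.457). Gm24395 overlaps the span of Msh4 by 125 bp on the opposite strand.

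Msh5 encodes the partner of MSH4. Msh5 (chr17:35028605-35046997, minus strand) was at 84.8, 65.5 and 78.8 normalized counts in the WT embryos and at 26.05, 35.01 and 43.07 in the Dnmt3b-/- embryos. It was the only 1 of the 10 genes with every Dnmt3b-/- embryo below every WT embryo. Msh5 was 2.20-fold higher in WT than in Dnmt3b-/- embryos, with a log2 fold change of -1.14 (95% interval -1.91 to -0.37, edgeR adjusted p = 0.0302). The call did not hold in every fit. It was lost without WT embryo 1 (adjusted p = 0.122), WT embryo 3 (0.0938), Dnmt3b-/- embryo 1 (0.0683) or Dnmt3b-/- embryo 2 (0.0733), although the log2 fold changes in these 4 fits were between -1.15 and -0.95. It was also lost after a correction for exonic GC content and length (log2 fold change -0.86, adjusted p = 0.106), and the exonic GC content of Msh5, 55.8%, was higher than that of 78.6% of the tested genes. With the Xist level as a covariate, added after the data were seen, the adjusted p was 0.0573. Another RefSeq gene, Gm52318, overlaps the span of Msh5 by 1765 bp on the opposite strand. Since the strand setting of the counting is not given, reads of an overlapping gene on the opposite strand cannot be told apart from those of Msh5. The same holds for each other gene described here with such an overlap.

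Tex11 encodes an X-linked protein related to yeast Zip4 that is needed for crossovers and chromosome pairing. Tex11 (chrX:100838648-101059639, minus strand) was at 3.96, 6.89 and 9.73 normalized counts in the WT embryos, from 5, 6 and 11 reads. In the Dnmt3b-/- embryos it was at 232, 257 and 194 normalized counts, from 232, 220 and 171 reads. Tex11 thus changed from the border of detection to a level that every Dnmt3b-/- library measured with at least 171 reads. It rose 32.9-fold, with a log2 fold change of 5.04 (95% interval 4.2 to 5.88, edgeR adjusted p = 0.000362), and it ranked 25 from the top among all tested genes. Because the gene is X-linked, its values were set beside those of Xist. Dnmt3b-/- embryo 2, with high Xist, had 257 normalized counts of Tex11, and WT embryos 1 and 3, with high Xist, had 3.96 and 9.73. Dnmt3b-/- embryos 1 and 3, with Y-linked transcripts, had 232 and 194, and WT embryo 2, with Y-linked transcripts, had 6.89. With the Xist level as a covariate the log2 fold change of Tex11 was 5.10 (edgeR adjusted p = 0.000768), so that the difference was as large as without it. The span of Tex11 holds Gm19083 (2430 bp) on the same strand, and Gm24577 (63 bp) and Gm27510 (64 bp) on the opposite strand. These overlapping genes were not analysed here.

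**Figure D2:**
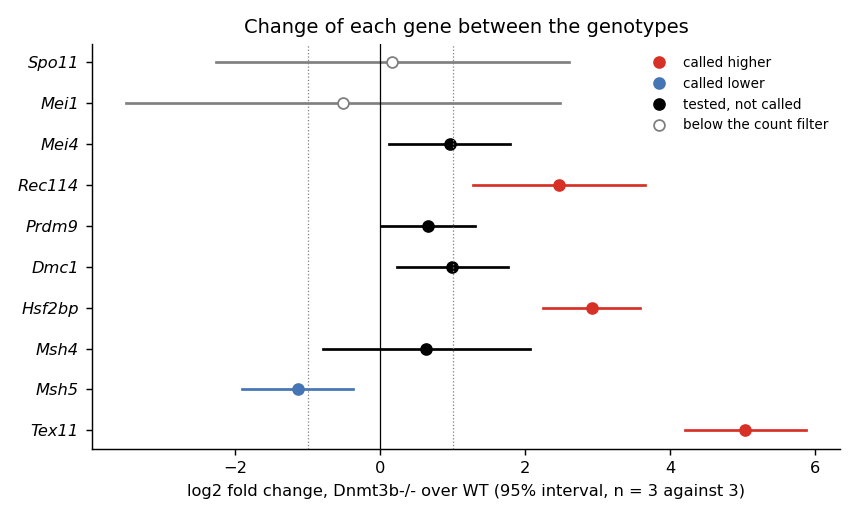
Log2 fold change of each of the 10 genes between Dnmt3b-/- and WT embryos (points) with its 95% interval (lines), in the order of the pathway from break formation to crossovers, where dotted lines mark a fold change of 2 and open symbols are Spo11 and Mei1 from the fit without the count filter. The intervals of Tex11, Hsf2bp and Rec114 lie above 1 on the log2 scale, and that of Msh5 lies below 0.

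Divided by exonic length, as FPKM (fragment counts scaled to kilobases of exon and to the size of the library), the genes were all low in both genotypes. In WT embryos the mean levels fell in the order Dmc1 (0.592 FPKM), Msh5 (0.541), Prdm9 (0.408), Rec114 (0.364), Hsf2bp (0.235), Mei4 (0.119), Msh4 (0.0974), Spo11 (0.0958), Tex11 (0.0397) and Mei1 (0.0193). In this order the ranges over embryos did not overlap between Msh5 and Prdm9, between Hsf2bp and Mei4, and between Spo11 and Tex11, and the other neighbours did not differ beyond their spread. In Dnmt3b-/- embryos Rec114 led with 2.06 FPKM, followed by Hsf2bp (1.79), Tex11 (1.32), Dmc1 (1.18), Prdm9 (0.646), Msh5 (0.246), Mei4 (0.231), Msh4 (0.151), Spo11 (0.107) and Mei1 (0.0130). Only Dmc1 with Prdm9 and Prdm9 with Msh5 were neighbours without overlap there.

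The summed level of the 10 genes was 2.60, 2.53 and 2.40 FPKM in the WT embryos and 8.17, 7.95 and 7.11 FPKM in the Dnmt3b-/- embryos. The embryos of a genotype were thus alike in the sum, while the share of each gene varied. Tex11 made up 0.882% to 2.34% of the sum in WT and 15.7% to 18.7% in Dnmt3b-/- embryos. Rec114 made up 7.46% to 18.2% in WT embryos, and 35.78%, 27.96% and 14.62% in Dnmt3b-/- embryos 1, 2 and 3. Hsf2bp made up 7.88% to 12% in WT and 20.1%, 18.0% and 32.4% in Dnmt3b-/- embryos 1, 2 and 3, so that it was highest in the embryo where Rec114 was lowest. Msh5 made up 18.3% to 23.2% of the sum in WT and 2.26% to 4.29% in Dnmt3b-/- embryos.

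**Figure D3:**
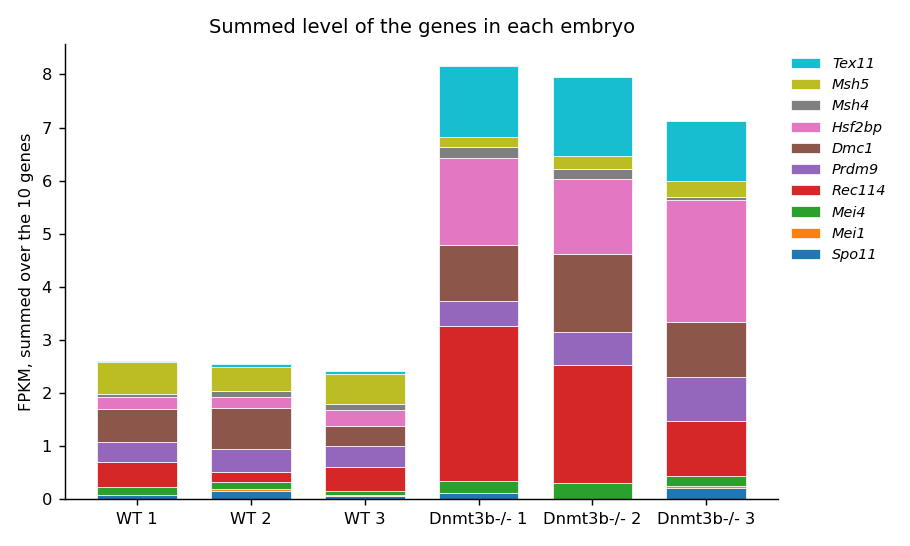
FPKM of the 10 genes stacked for each of the 6 embryos. The WT embryos sum to 2.40 to 2.60 FPKM, mostly Dmc1, Msh5, Prdm9 and Rec114, and the Dnmt3b-/- embryos sum to 7.11 to 8.17 FPKM, mostly Rec114, Hsf2bp, Tex11 and Dmc1.

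Somatic repair genes related to these were expressed far above them in every embryo. BRCA2, a repair protein of somatic and germ cells that is bound by the product of Hsf2bp, had 39.9 to 61.4 times the FPKM of Hsf2bp in WT and 6.43 to 9.80 times in Dnmt3b-/- embryos. MSH6 is a mismatch repair protein of the same MutS family as MSH5. Msh6 was at 114 to 156 times the FPKM of Msh5 in WT and 351 to 475 times in Dnmt3b-/- embryos, and its log2 fold change was 0.46 (edgeR adjusted p = 0.00465), which is under the fold threshold. The ratio of Msh4 to Msh5, whose products form a pair, was 0.0961 to 0.250 in WT embryos and 1.19, 0.738 and 0.166 in Dnmt3b-/- embryos 1, 2 and 3, so that the groups overlapped.

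Other genes of the meiotic pathway were followed in lists by step. Of 5 listed partners at the double-strand breaks 4 were in the table and 3 were tested. Of these 2 rose, 0 fell and 1 was not called, with a median log2 fold change of 1.15. Over all tested genes 2.12% were called higher and 3.78% lower. The list is not limited to the making of breaks, since it holds Tex15, which acts in their repair. Ccdc36 encodes IHO1, which binds REC114 and MEI4. Ccdc36 was at 42.8, 60.9 and 103 normalized counts in WT and 204, 169 and 197 in Dnmt3b-/- embryos, without overlap, and rose by a log2 fold change of 1.47 (95% interval 0.70 to 2.24, edgeR adjusted p = 0.0107). Tex15, which is needed for repair of the breaks and for silencing of transposons in male germ cells, was at 619, 982 and 414 in WT and 1164, 1624 and 1668 in Dnmt3b-/- embryos, and rose by 1.15 on the log2 scale (adjusted p = 0.0161). The call of Tex15 was lost without WT embryo 1 (adjusted p = 0.0563), WT embryo 3 (log2 fold change 0.89), Dnmt3b-/- embryo 2 (adjusted p = 0.0618) or Dnmt3b-/- embryo 3 (0.0611), and after the correction for GC content and length (log2 fold change 0.75, adjusted p = 0.0823). Zcwpw1, a reader of the histone marks that PRDM9 writes, had the highest level of the list, 2.51 FPKM in WT and 3.87 in Dnmt3b-/- embryos, and a log2 fold change of 0.62 (adjusted p = 0.0482) that is under the fold threshold. Ankrd31 was not analysed here.

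Of the 7 listed partners in meiotic strand exchange 6 were tested and 0 were called by edgeR, DESeq2 or limma, with a median log2 fold change of 0.31. At an unadjusted p below 0.05 by edgeR, 3 were higher and 0 lower, where 22% of all tested genes were higher and 23.7% lower. Only Psmc3ip, which encodes HOP2, an accessory factor of DMC1, had an adjusted p below 0.05 (0.0419) by edgeR, with a log2 fold change of 0.36. It was also the highest of the list, with 26.5 FPKM in WT and 34.1 in Dnmt3b-/- embryos.

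Of 8 listed crossover partners 5 were in the table and tested, of which 1 rose, 0 fell and 4 were not called, with a median log2 fold change of 1.14. The gene that rose passed the count filter only through the Dnmt3b-/- embryos, and the median of the other 4 was 0.65. DESeq2 called 1 more higher, Cntd1, a regulator of crossover designation, whose edgeR log2 fold change was 1.14 (adjusted p = 0.057). Ccnb1ip1 encodes HEI10, a ubiquitin ligase that acts at crossover sites. Ccnb1ip1 was at 2.38, 4.59 and 1.77 normalized counts in WT and 13.03, 16.34 and 41.94 in Dnmt3b-/- embryos, and rose by 3.02 on the log2 scale (95% interval 1.33 to 4.71, edgeR adjusted p = 0.0142). This call rests on few reads, 9 in all WT and 64 in all Dnmt3b-/- embryos, and it was lost without WT embryo 1 (adjusted p = 0.0608), without WT embryo 3 (0.0543), and without Dnmt3b-/- embryo 3, where the gene had too few counts to be tested. With limma on log2(CPM + 1) it was lost as well (log2 fold change 0.47, adjusted p = 0.0559). Mlh3, whose product cuts crossover intermediates, had the highest level of this list, 4.83 FPKM in WT and 4.85 in Dnmt3b-/- embryos, and a log2 fold change of 0.01. Rnf212, Rnf212b and Shoc1 were not analysed here. Over the 3 lists of partners, 3 genes were called higher, and 1 was called higher without WT embryo 3 or without Dnmt3b-/- embryo 3.

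Of the 31 listed genes of recombination repair in somatic cells, all of which were tested, 1 rose and 0 fell, 10 had an adjusted p below 0.05 by edgeR with a positive and 4 with a negative log2 fold change, and the median was 0.17. Over all tested genes 17.6% were higher and 18.1% lower at this adjusted p. Sfr1, whose product works with SWI5 in recombination repair, was the gene that rose and the highest of the list in Dnmt3b-/- embryos. It was at 13048, 12387 and 12782 normalized counts in WT and 24357, 29112 and 35399 in Dnmt3b-/- embryos, with a log2 fold change of 1.22 (edgeR adjusted p = 0.00062). The call of Sfr1 was lost after the correction for GC content and length (log2 fold change 0.96, adjusted p = 0.00139). Swi5 had the highest mean in WT embryos, with 328 FPKM against 372 in Dnmt3b-/- embryos, and was not called.

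**Figure D4:**
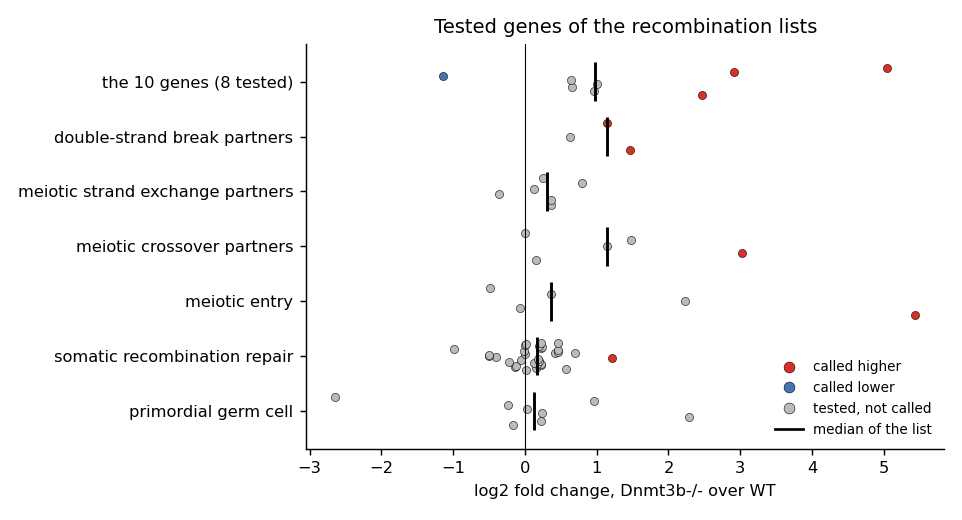
Log2 fold change between Dnmt3b-/- and WT embryos of each tested gene, by list, with the list median as a black line and called genes in red (higher) or blue (lower). The 31 genes of somatic recombination repair lie between -0.99 and 1.22 around their median of 0.17. The tested genes of the meiotic lists, called or not, lie between -1.14 and 5.44. The highest of these, Stra8, Tex11 and Ccnb1ip1, passed the count filter only through the Dnmt3b-/- embryos. A call needs a change of more than 2-fold, so that called genes lie away from 0 by definition.

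Entry into meiosis and the presence of germ cells were looked at with lists of their own. Of 6 listed genes of meiotic entry 5 were tested, of which 1 rose, 0 fell and 4 were not called, with a median log2 fold change of 0.37. The gene that rose passed the count filter only through the Dnmt3b-/- embryos, and the median of the other 4 was 0.15. Stra8 encodes the factor induced by retinoic acid that starts the meiotic program in germ cells. Stra8 was at 2.38, 1.15 and 0.88 normalized counts in the WT embryos and at 60.1, 106 and 47.6 in the Dnmt3b-/- embryos (edgeR adjusted p = 0.000823). All WT embryos were at or under the limit of 3 counts, so that the level in Dnmt3b-/- embryos was at least 25.2-fold higher than this limit. Ythdc2, a meiotic RNA helicase that is the highest of the list, was at 7.58 FPKM in WT and 9.76 in Dnmt3b-/- embryos, with a log2 fold change of 0.37 (adjusted p = 0.0289). Meiosin was not analysed here.

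Genes that mark primordial germ cells, the only cells of an E8.5 embryo that belong to the germline, were set beside these changes. Of 10 listed genes 8 were tested and 0 were called by edgeR, with a median log2 fold change of 0.13, and 1 had an adjusted p below 0.05. At an unadjusted p below 0.05, 2 were higher and 2 lower by edgeR, against the same 22% and 23.7% of all tested genes. DESeq2 called 1 of them higher, which was Dppa3, and limma called 0. Their normalized counts summed to 5068 to 6358 in WT and 4977 to 6267 in Dnmt3b-/- embryos. Most of this sum came from Alpl (mean 2356 in WT and 2001 in Dnmt3b-/- embryos) and Kit (1457 and 1491), so that it says little about the genes at low counts. Prdm1, which specifies these cells, had a log2 fold change of -0.17 (adjusted p = 0.484). Dppa3, which is expressed in them, was at 7.13, 23.0 and 16.8 normalized counts in WT and 34.07, 21.01 and 172 in Dnmt3b-/- embryos, with overlap (log2 fold change 2.29, edgeR adjusted p = 0.0637). Pou5f1, a pluripotency gene that germ cells keep on, was at 839 normalized counts in WT embryo 2 and at 29.1 to 94.1 in the other embryos. Its log2 fold change was -2.64 (edgeR adjusted p = 0.0739), and -0.44 (adjusted p = 0.57) without WT embryo 2. None of the 10 genes was at 0 in all embryos, and several of them are also expressed in somatic cells. Of the 5 listed genes of spermatids and Sertoli cells, Tnp1 and Acrv1 were at 0 in all embryos, and Prm1 and Prm2 at no more than 3 counts. Rhox5 was expressed in every embryo, at 569 to 3595 normalized counts in WT and 771 to 1730 in Dnmt3b-/- embryos, and was not called.

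The promoter windows were available for 8 of the 10 genes, as 9 windows from 250 bases before to 50 bases after an annotated start, and Spo11 and Tex11 had none. The number of CpGs in a window was 27 for Msh5, 20 for Hsf2bp, 18 for Dmc1, 18 and 9 for Prdm9, 16 for Mei4, 12 for Rec114, 8 for Mei1 and 6 for Msh4. Windows can lie inside a gene, since the start used was 81147 bp from the annotated 5′ end of Rec114 and 12402 bp from that of Mei1. The start was 1247 bp from that of Msh4 and 1043 bp from that of Prdm9 for its window of 9 CpGs. The CpGs and letters in these windows need not describe the first promoter. The median was 7 over all 32851 windows of the annotation, 19 over the windows of tested genes, 16 over those of genes called higher and 19 over those of genes called lower. Of the called genes with a window, Msh5, which fell, had more CpGs than Hsf2bp and Rec114, which rose. The letters CACGTG, the core of the E box bound by MAX and MYC dimers, were searched on both strands and were present in the Rec114 window only, 19 bases before the start, within the longer string TCACGTG. They were present in 7.15% of all windows and 9.7% of those of tested genes. The letters TTCCCGC, a form of the E2F site, were found in the windows of Rec114, Hsf2bp and Msh5 and in 1 of those of Prdm9. They were present in 4.6% of all windows and 7.91% of those of tested genes. Their share was 13.3% for windows of genes called higher and 8.33% for those of genes called lower. The letters TTCGCGC, another form of the E2F site, and TGACGT, a part of the cAMP response element, were not found in the windows of these genes. A match of letters is a description of the sequence and was not tested for binding.

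**Figure D5:**
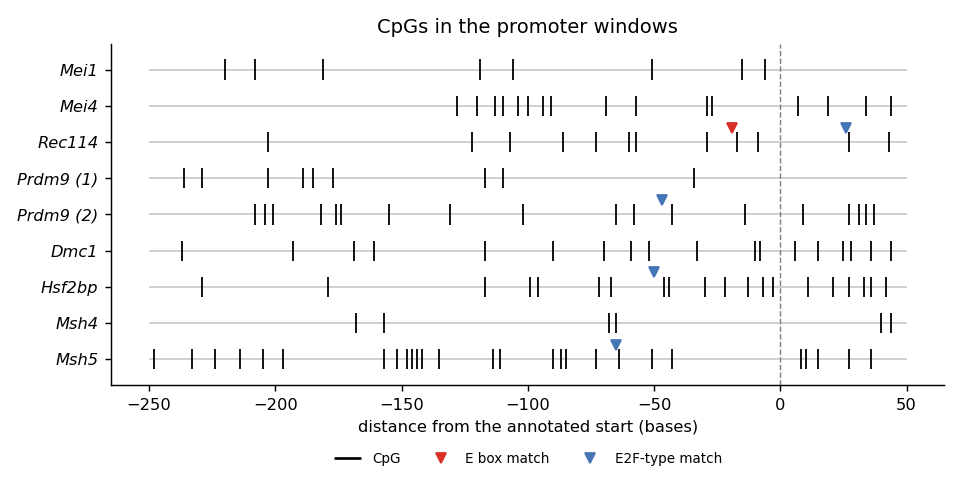
CpG dinucleotides (black ticks) along the 9 promoter windows of 8 genes by distance from the annotated start in bases, with triangles at E box letters (red) and E2F letters (blue). The Msh5 window holds 27 CpGs and that of Msh4 holds 6, and the E box letters of Rec114 lie 19 bases before the start.

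In the study's list of genes whose promoter CpG island is methylated in embryos, fully or in part, the names Spo11, Mei1, Msh4 and Hsf2bp occur. The paper gives Mei1 as an example of partial methylation. This list was made from methylation libraries of the same series, which were not analysed here, and only its names were used. Of these 4 genes 1 rose and 2 were below the count filter. Of the 6 genes outside the list 2 rose (Rec114 and Tex11) and 1 fell (Msh5). Hsf2bp was thus the 1 gene both listed and called. The study left the X chromosome, which holds Tex11, out of its partially methylated class. Absence of Tex11 from the list therefore does not show that its promoter lacks partial methylation. The paper describes the list as one of high confidence, and it holds CpG islands only. For the other genes outside it, absence does not show that a promoter is unmethylated either.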

How the data were processed

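RNA-Seq was measured in 3 WT and 3 Dnmt3b-/- embryos at E8.5. The other 21 of the 27 samples of the series are of another assay and were not analysed here. Total RNA was depleted of ribosomal RNA and made into libraries with a stranded kit. The authors used TopHat2 2.0.12 for alignment to mm10 and HTSeq 0.6.0 for counting over exons of RefSeq genes, and the deposited raw counts were analysed here. The RefSeq release and the strand setting are not given in the sources used here. The deposited normalized signal, which the authors made by dividing counts by DESeq2 1.4.5 size factors, served to check levels. The authors' deposited log2 fold changes and adjusted p-values compare the genotypes and were not used.

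Genes had to reach 10 counts on average, which left 15114. Their counts were normalized by TMM, scaled to the mean library, and tested two-sided by quasi-likelihood in edgeR 4.0.16 (R 4.3.3), with Benjamini-Hochberg adjustment over all of them. A call needed both an adjusted p below 0.05 and a change of more than 2-fold. An exact permutation test of 3 against 3 embryos cannot go below p = 0.1 and was not used. FPKM came from counts and RefSeq exon length in GRCm38.p6, in which 22608 genes matched by symbol and 1277 by an older symbol. As a detection limit 3 counts were used (2.38 to 3.5 after normalization), which covers counting error only. Tables and figures were made with Python 3.11.15, pandas 2.3.3, numpy 2.4.6 and matplotlib 3.10.9. On simulated data with 200 changed genes among 15114, edgeR recovered 100% and called 5 unchanged genes. The simulated log2 fold changes were 2 or 3 in size, and all genes had the same dispersion. Recovery of changes near 2-fold, or of genes that vary more between embryos, was therefore not measured.

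The genes and lists were chosen with earlier results of these data known. All 10 genes are named, with Dnmt3b as the deleted gene. Of each pathway list up to 4 called genes and the gene of highest FPKM are named, and Msh6 as a somatic paralog, Dppa3 and Prdm1 as germ cell genes, Xist beside Tex11, and overlapping or called neighbouring genes. Psmc3ip has the highest FPKM of its list. Brca2, Cntd1, Mus81, Ifitm3, Alpl, Kit, Gm1564, Pou5f1, Rec8, Rrp1b, Hcn4, Irak1bp1, Pdcd2, Cd276, Rae1 and Sapcd1, the list genes of spermatids and Sertoli cells, and genes absent from the table were named after their values were seen. Some further somatic paralogs are not reported here. Embryos with the same replicate number did not deviate together (r = -0.0491, -0.147 and -0.013 for numbers 1, 2 and 3), and no pair of libraries agreed within sampling noise. Embryos with the same number always differed in Xist level, so that these r values cannot decide whether numbers pair littermates. The main fit used no pairing. Alternatives were no filter or a mean of at least 50 counts, DESeq2 size factors, total counts, DESeq2 1.42.0, limma 3.58.1 on log2(CPM + 1), a replicate block, a correction for GC content and length, each embryo left out, and no fold threshold, with an Xist covariate added after seeing the data.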

Additional observations from a re-analysis of the deposited data

How the results depend on the processing

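Tex11 and Hsf2bp were called higher under 9 of 9 other settings and Rec114 under 8 of 8, and each in 6 of 6 fits with 1 embryo left out. Between 2 and 4 of the 10 genes were called higher under any setting, where the 2 belong to the filter at a mean of 50 counts, which leaves Rec114 untested, and the 4 include Dmc1, with DESeq2 (log2 fold change 1.02), with its size factors (1.01), without WT embryo 2 (1.23), or with no fold threshold. The 1 gene called lower, Msh5, was lost (0 genes) under limma, the replicate block, the correction for GC content and length, and the Xist covariate, and the count was 0 to 1 with 1 embryo left out. On the log2(CPM + 1) scale of limma low genes change less, so that Tex11 had a log2 fold change of 2.32 and Msh5 one of -0.59. The replicate block, although it is not known whether numbers pair embryos, gave Msh5 an adjusted p of 0.0765, and 265 genes higher and 516 lower. Over all genes the counts of 320 higher and 571 lower became 177 and 280 with limma and 2654 and 2741 with no fold threshold, and 178 were lower after the correction for GC content and length. They were 242 to 381 higher and 391 to 774 lower with 1 embryo left out. The 3 meiotic partner genes called higher became 1 to 4 with 1 embryo left out and 5 with no fold threshold. The 1 somatic repair gene called higher became 0 after the GC and length correction and 10 with no fold threshold. The 0 somatic repair genes called lower became 1 without a filter, with total counts and with the replicate block, and 0 to 1 with 1 embryo left out, where the gene was Mus81 (log2 fold change -0.99, edgeR adjusted p = 0.0116), and 4 with no fold threshold. Scaling by total counts moved the median of all tested genes from -0.03 to -0.11. Dnmt3b was under the fold threshold with limma (-0.95), the replicate block (-0.95), the GC and length correction (-0.90) and without WT embryo 2 (-0.61), and had an adjusted p of 0.0555 to 0.0613 without Dnmt3b-/- embryo 1, 2 or 3. The cause of these shifts was not tested. With 3 embryos for each genotype the intervals of Msh4, Mei4 and Prdm9 are wide, and Spo11 and Mei1 were measured with 0 to 16 reads in an embryo, which cannot show a moderate change.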

Other observations

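The genes next to each of the 10 genes on the chromosome were compared as well. Of the 20 neighbours in the RefSeq order 16 were tested, 0 were called higher and 1 was called lower by edgeR, and 5 were higher and 4 lower at an unadjusted p below 0.05, where 22% of all tested genes were higher and 23.7% lower. DESeq2 called 0 of them higher and 1 lower, and limma called none. The neighbour called lower was Slc7a3, which encodes a cationic amino acid transporter and lies 19506 bp from Tex11, with a log2 fold change of -1.39 (adjusted p = 0.048). Hsf2bp has Rrp1b, a gene of ribosome biogenesis, 1266 bp away, and Rrp1b was at 7412 normalized counts in WT and 7433 in Dnmt3b-/- embryos. Rec114 has Hcn4, a pacemaker channel gene, 242 bp away, with a log2 fold change of -0.52 (adjusted p = 0.309). Some were higher at an edgeR adjusted p below 0.05 but under the fold threshold. They were Irak1bp1, 623798 bp from Mei4 (log2 fold change 0.84, adjusted p = 0.00106), Pdcd2, 15752 bp from Prdm9 (0.75, adjusted p = 0.00179), and Cd276, 97822 bp from Rec114 (0.56, adjusted p = 0.0111). Rae1, 6539 bp from Spo11, was lower (-0.31, adjusted p = 0.00674). At this adjusted p 17.6% of all tested genes were higher and 18.1% lower. Mei4 and Prdm9 themselves had log2 fold changes of 0.96 and 0.66, and a link to their neighbours was not tested. Sapcd1 lies 47 bp from Msh5 and was at 12.01 normalized counts in WT and 3.87 in Dnmt3b-/- embryos, too few to be tested.

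Of the meiotic entry genes that were not called, Gm1564, the gene of the meiotic RNA-binding partner MEIOC, was at 6.34, 12.6 and 25.7 normalized counts in WT and 21.04, 53.7 and 136 in Dnmt3b-/- embryos, with overlap (log2 fold change 2.23, edgeR adjusted p = 0.0507), and DESeq2 called it higher. Rec8, the meiotic cohesin subunit, was at 167, 156 and 217 in WT and 199, 177 and 139 in Dnmt3b-/- embryos, with a log2 fold change of -0.07. Ifitm3, an interferon-induced membrane protein gene of the germ cell list, was the member of that list with an adjusted p below 0.05, at a log2 fold change of 0.96 (adjusted p = 0.00284).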
